A study of Mus musculus with 24 samples.

Results

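The transforming growth factor beta (TGF-beta) and bone morphogenetic protein (BMP) signalling family was followed in 3 tissues, white fat, muscle and brown fat, of an obese and a lean mouse strain. Its members were chosen by name: Bmp, Gdf and Smad followed by a digit, names starting with Bmpr, Tgfb, Inhb or Acvr, and a few extracellular antagonists such as Fst and Nog. The rule matched 56 gene names on 83 probes, and the probe with the highest mean signal stood for each gene. Of these names, 51 were well above background on every array of at least 1 of the 6 groups by strain and tissue, among 23330 such genes of 34947 names on the array. The other 5, Bmp10, Bmp15, Gdf2, Gdf6 and Grem1, did not meet that rule and are not described further. Of the 56, 40 were detected in all 6 groups, 1 in 5, 4 in 4, 3 in 2 and 3 in 1. The rule also caught 5 names that are not ligands, receptors or Smads of the family: the protease Bmp1, the kinase Bmp2k, the matrix protein Tgfbi, the focal adhesion protein Tgfb1i1 and the receptor-associated protein Tgfbrap1.

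The groups were gWAT, BAT and muscle of NZO/HiBomDife mice (NZO) and the same 3 tissues of C57BL/6 mice (B6), where gWAT is gonadal white fat and BAT is brown fat. NZO is a polygenic model of obesity and diabetes, so the strains differ at many loci and not at 1 allele. All mice were males on a diet with 45% fat, and the extraction notes give 6 weeks, taken here as the age. Whether it is the age or the time on the diet is not settled by the labels. Each of the 6 groups had 4 arrays, and each array carried 1 RNA labelled with Cy3. Whether each sample is an animal of its own is not in the labels. The p-values therefore reflect the spread of these samples alone, which may be technical. B6 muscle 011 was left out of the muscle group by the rule that chose the members, which leaves 3 B6 muscle arrays.

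Ligands of this family are secreted dimers that bind pairs of type I and type II receptor kinases. The type I receptor phosphorylates receptor Smads, Smad2 and Smad3 for TGF-beta and activin and Smad1, Smad5 and Smad9 for BMPs, and these enter the nucleus with Smad4. The inhibitory Smad6 and Smad7 are induced by the pathway and limit it, and follistatin and noggin bind ligands outside the cell. In fat, BMPs are known for their part in the commitment of adipocyte precursors, and TGF-beta for fibrosis. In muscle, myostatin and activins limit fibre size.

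Values are log2 processed signals minus the array's 75th percentile, so 0 is the level of that percentile. They are compared between arrays for 1 probe and never between probes, and array values are listed in the order of the title numbers. A difference is called at an adjusted p under 0.05 by limma, with adjustment over all genes tested. Between 51.9% and 59.3% of the probes of an array were well above background. The defining markers of each tissue were measured: the summed signal of 8 mature adipocyte genes was 1820 to 2670 times the 75th percentile in NZO gWAT and 1950 to 2370 times in B6 gWAT. That of 10 muscle fibre genes was 10400 to 11600 in NZO muscle and 11800 to 13500 in B6 muscle. B6 muscle 011 stood apart with an adipocyte sum of 1130, against 114 to 136 on the other B6 muscle arrays. Its macrophage sum was 102, against 47.2 to 49.2. The B6 BAT arrays held 225 to 927 of muscle fibre signal, against 1.54 to 8.23 in NZO BAT.

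Promoters are shown for 4 members that moved in more than 1 tissue: the ligands Bmp4 and Gdf7, the inhibitory Smad6 and the receptor-associated Tgfbrap1. The sequences are those of RefSeq on GRCm38.p6, from 250 bases before to 50 bases after the annotated start, 5′ to 3′ along the gene's strand. Capitals mark the core of the Smad box, AGAC, on either strand. Bmp4 lies on the minus strand at chr14:46390620-46390919, Gdf7 on the minus strand at chr12:8301905-8302204, Smad6 on the minus strand at chr9:64022010-64022309, and Tgfbrap1 on the minus strand at chr1:43098579-43098878, the first of 2 starts listed for it.
Bmp4: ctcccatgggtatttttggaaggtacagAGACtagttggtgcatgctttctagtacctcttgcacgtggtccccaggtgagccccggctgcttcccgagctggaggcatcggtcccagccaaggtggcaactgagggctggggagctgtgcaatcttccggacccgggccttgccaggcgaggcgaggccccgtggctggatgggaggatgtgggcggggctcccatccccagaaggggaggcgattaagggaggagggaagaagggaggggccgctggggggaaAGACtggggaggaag
Gdf7: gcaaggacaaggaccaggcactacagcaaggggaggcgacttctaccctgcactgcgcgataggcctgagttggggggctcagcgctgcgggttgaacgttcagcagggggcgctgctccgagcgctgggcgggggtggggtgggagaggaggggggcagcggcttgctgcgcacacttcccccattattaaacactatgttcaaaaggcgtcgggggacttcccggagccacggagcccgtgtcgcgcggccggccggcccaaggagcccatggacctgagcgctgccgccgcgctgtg
Smad6: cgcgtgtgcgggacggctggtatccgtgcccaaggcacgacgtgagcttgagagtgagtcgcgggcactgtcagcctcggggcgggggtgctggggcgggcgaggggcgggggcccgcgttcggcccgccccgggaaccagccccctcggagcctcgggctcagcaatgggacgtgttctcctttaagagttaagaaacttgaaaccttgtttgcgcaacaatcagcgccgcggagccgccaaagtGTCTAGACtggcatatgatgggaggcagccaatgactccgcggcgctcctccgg
Tgfbrap1: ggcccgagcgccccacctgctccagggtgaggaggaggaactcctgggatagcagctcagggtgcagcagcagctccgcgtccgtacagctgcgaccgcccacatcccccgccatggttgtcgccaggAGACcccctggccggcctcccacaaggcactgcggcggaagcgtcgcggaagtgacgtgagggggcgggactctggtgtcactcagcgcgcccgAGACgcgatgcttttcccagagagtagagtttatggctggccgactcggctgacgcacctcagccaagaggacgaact
The core occurred 2 times in each of the Bmp4, Smad6 and Tgfbrap1 windows and was not found in that of Gdf7. Over all 32851 promoters listed, 88.0% held it. The longer form CAGAC, which contains the core, was in 49.6% of all promoters, and GGCGCC, a palindrome known as a BMP-type Smad motif, in 11.9%. Neither was in any of the 4 windows. Of the 34 reported members with a promoter listed, 29 held the core, 15 held CAGAC and 10 held GGCGCC. These letter matches are descriptions of the sequence and say nothing of binding.

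**Figure D1:**
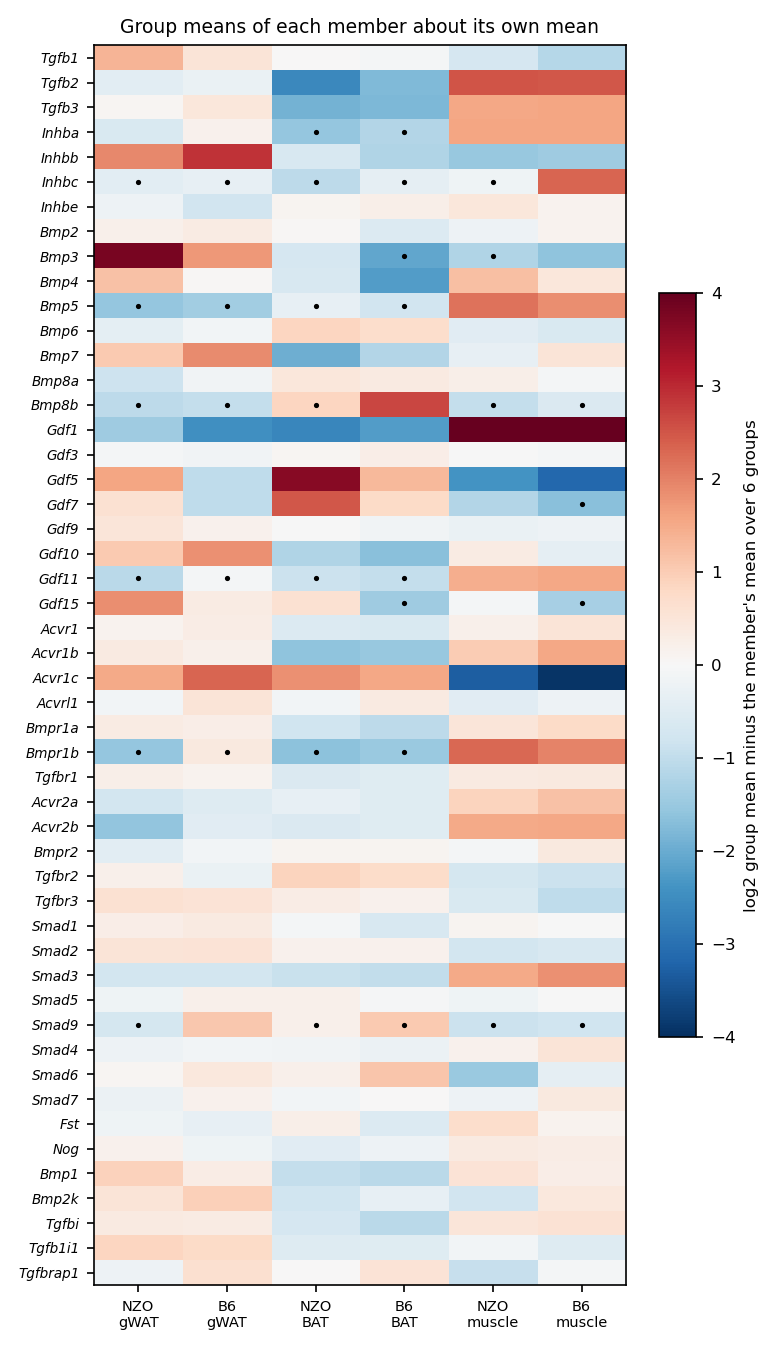
Heat map of the 6 group means of the members described (rows, ordered by role) around that member's own mean over the groups, in log2 units. Columns are NZO and B6 gWAT, BAT and muscle, and a black dot marks a group in which the probe was not well above background on every array. Gdf1, Tgfb2 and Bmp5 are reddest in muscle, Gdf5, Gdf7 and Bmp8b in BAT, and Bmp3 and Inhbb in gWAT.

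Where the members are expressed was asked first, with the mean of both strains compared between tissues. The activin subunit Inhbb and the ligand Bmp3 were highest in white fat, Gdf5 and Gdf7 in brown fat, and Gdf1 and Tgfb2 in muscle. Between BAT and gWAT, 12 of 51 members were higher and 26 lower in BAT, against 45.8% and 27.9% of all genes. Between muscle and gWAT, 20 were higher and 23 lower in muscle, against 40.6% and 35.2% of all genes. Between muscle and BAT, 26 were higher and 15 lower in muscle, against 30.3% and 38.6% of all genes. The median member differed by -0.35 for BAT minus gWAT, while the median of all genes was 0.25. A scaling on the array median moved the median of all genes to -0.07 and gave 7 higher and 32 lower members in that comparison.

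Bmp3, an atypical BMP that opposes osteogenic BMPs, was lower in BAT than in gWAT (limma adjusted p = 9.31e-14), with 1 of 4 B6 BAT arrays measured. Inhbb, the beta-B subunit of activin B, differed by -3.33 ± 0.19 (SE) in the same comparison (limma adjusted p = 7.3e-12). Gdf15, a stress-induced hormone that acts on the hindbrain, was lower in BAT than in gWAT (limma adjusted p = 1.95e-05), with 2 of 4 B6 BAT arrays measured. All 3 were lower in muscle than in gWAT as well.
Gdf5, a joint and cartilage ligand that is also known in brown adipogenesis, was higher in BAT than in gWAT by 2.18 ± 0.18 (SE, limma adjusted p = 1.98e-09). Gdf7, a close relative of Gdf5, was higher in BAT by 1.83 ± 0.21 (SE, limma adjusted p = 1.75e-07). Bmp8b, a BMP known to raise the thermogenic response of brown fat, was measured on all arrays only in B6 BAT.
Tgfb2, a TGF-beta isoform, was higher in muscle than in gWAT by 2.85 ± 0.15 (SE, limma adjusted p = 5.76e-13). Gdf1 was higher in muscle than in gWAT by 6.28 ± 0.17 (SE, limma adjusted p = 2.95e-17). Gdf1 is transcribed together with the ceramide synthase Cers1 in a bicistronic RNA, and the probe cannot tell these transcripts apart. Bmpr1b, a BMP type I receptor, was measured on all arrays of muscle and on none of the NZO fat arrays. Acvr1c, the type I receptor ALK7 of adipocytes, was lower in muscle than in gWAT with a difference of -5.53 ± 0.15 (SE, limma adjusted p = 5.98e-17).

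**Figure D2:**
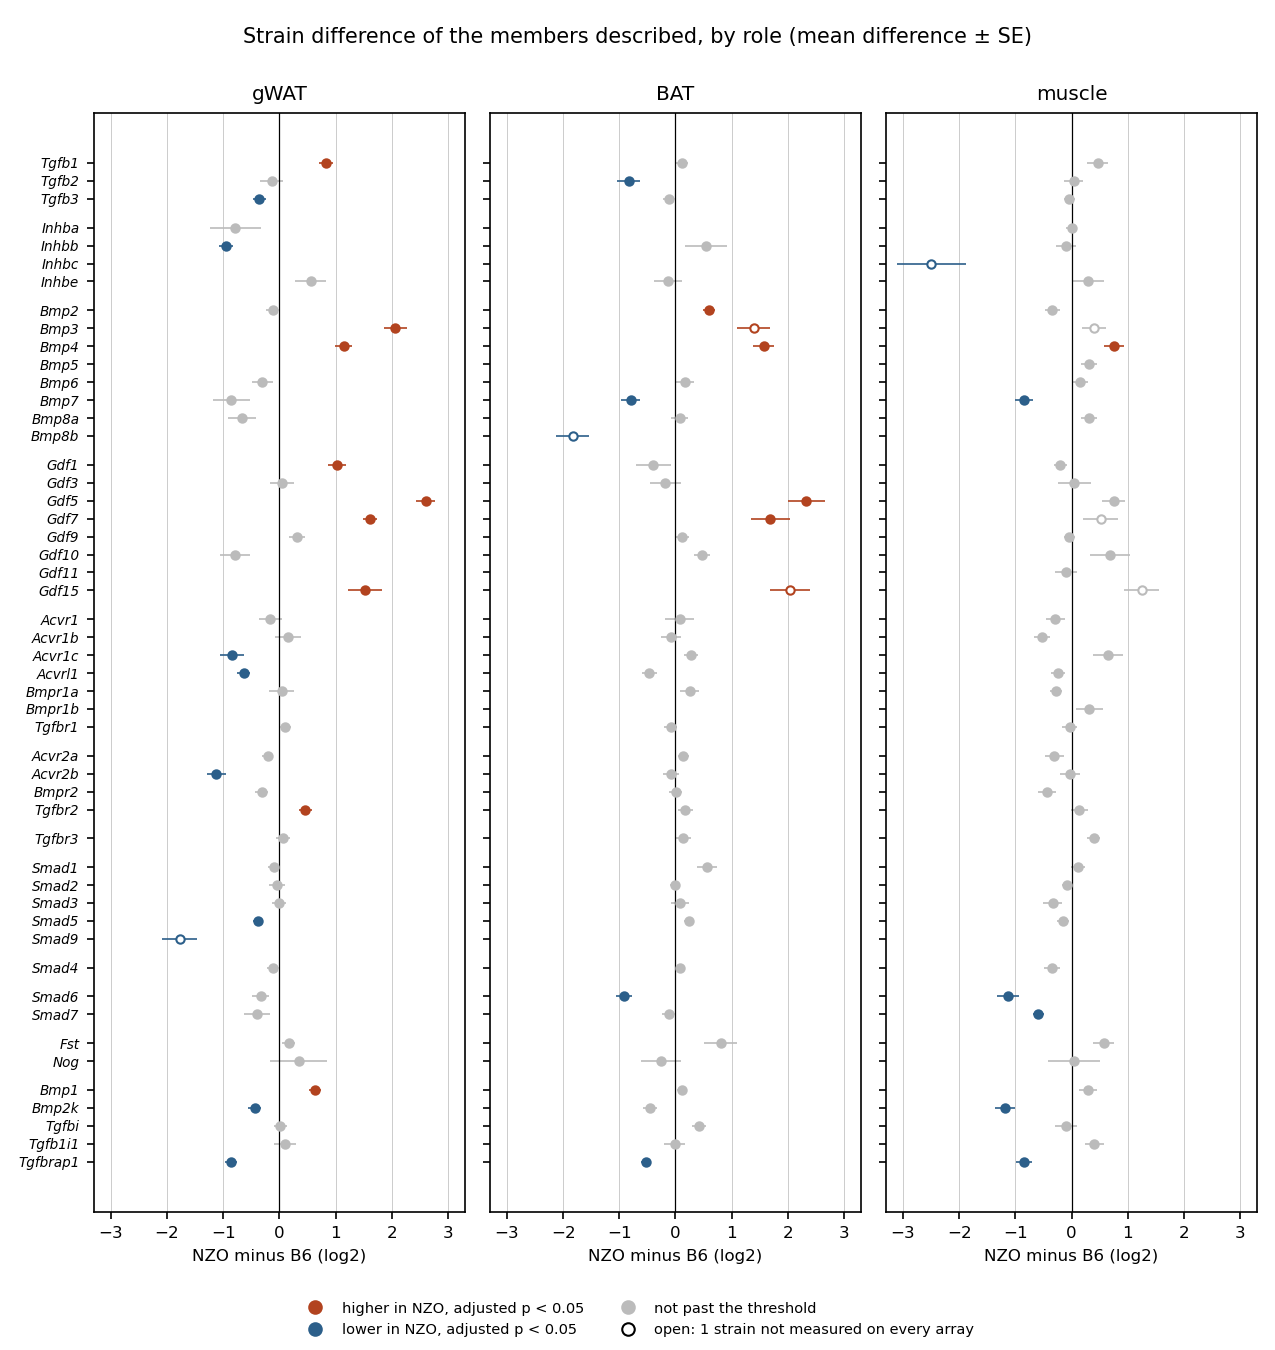
Strain difference of the members described (rows, by role), NZO minus B6 on the log2 scale, in gWAT, BAT and muscle, with bars of 1 standard error. Filled colours mark calls at an adjusted p under 0.05, grey points did not pass, and open circles mark members that 1 strain did not show on every array. The GDF and BMP ligands hold the points farthest to the right in both fat depots.

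In white fat, several secreted ligands were higher in NZO mice. Gdf5, Bmp3, Gdf7, Gdf15, Bmp4 and Gdf1 were 2.04-fold to 6.08-fold higher in NZO gWAT, and Tgfb1 was 1.78-fold higher. The activin B subunit Inhbb and the receptors Acvr2b, Acvr1c and Acvrl1 were lower, while the activin receptors Acvr1b and Acvr2a did not pass, at 0.15 and -0.21. Of 46 members tested there, 9 were higher and 9 lower in NZO, and 28 did not pass. That is 39.1% of the members, against 31.6% of all 21598 genes tested, of which 15.9% were higher and 15.6% lower. Bmp5, Bmp8b, Bmpr1b, Gdf11 and Inhbc were not tested in gWAT, because neither strain showed them on all arrays. By role, 7 of 19 ligands tested were higher and 2 lower, 1 of 11 receptors was higher and 3 lower, and 2 of 8 Smads were lower.

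Gdf5 had log2 levels of 2.03, 2.48, 2.35 and 2.29 in NZO gWAT, against -0.61, -0.55, -0.02 and -0.09 in B6 gWAT. Every NZO array lay above every B6 array, with a difference of 2.61 ± 0.17 (SE), a fold of 6.08 (limma adjusted p = 2.58e-05). Gdf7 had -1.32, -1.08, -1.27 and -1.25 in NZO gWAT, against -2.77, -3.14, -2.82 and -2.67 in B6 gWAT. The strains did not overlap, and the difference was 1.62 ± 0.13 (SE, limma adjusted p = 5.91e-05). Bmp3 had 1.35, 1.90, 1.93 and 1.58 in NZO gWAT, against -0.24, 0.02, -0.54 and -0.75 in B6 gWAT, again with no overlap. Its difference was 2.07 ± 0.20 (SE), a fold of 4.19 (limma adjusted p = 0.000191).

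Bmp4, a ligand that commits precursors to the adipocyte lineage, had 2.28, 2.27, 2.24 and 2.20 in NZO gWAT, against 0.88, 0.97, 1.56 and 0.99 in B6 gWAT. All NZO arrays were higher, by 1.15 ± 0.16 (SE, limma adjusted p = 0.000991). Gdf15 had -0.79, -1.27, -1.13 and -1.07 in NZO gWAT, against -2.90, -2.88, -2.995 and -1.59 in B6 gWAT. B6 gWAT 015 was the high B6 array and still lay below every NZO array, and the difference was 1.53 ± 0.31 (SE, limma adjusted p = 0.00714). Gdf1 was higher by 1.03 ± 0.16 (SE, limma adjusted p = 0.00176). That Gdf1 call was lost when detected probes were averaged (limma adjusted p = 0.158).

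Tgfb1, the TGF-beta isoform of immune and stromal cells, had 1.13, 1.17, 1.01 and 1.45 in NZO gWAT, against 0.45, 0.37, 0.38 and 0.24 in B6 gWAT. The strains were fully separate, with a difference of 0.83 ± 0.12 (SE, limma adjusted p = 0.00129). Tgfbr2, the type II receptor for TGF-beta, was higher by 0.47 ± 0.12 (SE, limma adjusted p = 0.022). This smaller call ended under quantile normalization (limma adjusted p = 0.0861) and without NZO gWAT 009, B6 gWAT 009, B6 gWAT 010 or B6 gWAT 015 (limma adjusted p = 0.0554, 0.0529, 0.0607 and 0.0572). Bmp1, the protease that trims procollagens and latent TGF-beta complexes, was higher by 0.63 ± 0.11 (SE, limma adjusted p = 0.0031). Tgfb3 was lower by a difference of -0.35 ± 0.12 (SE, limma adjusted p = 0.0488). The Tgfb3 call ended without any array but NZO gWAT 007, with adjusted p between 0.0604 and 0.113. It also ended without the filter and with slide as a block (limma adjusted p = 0.0955 and 0.0615).

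**Figure D3:**
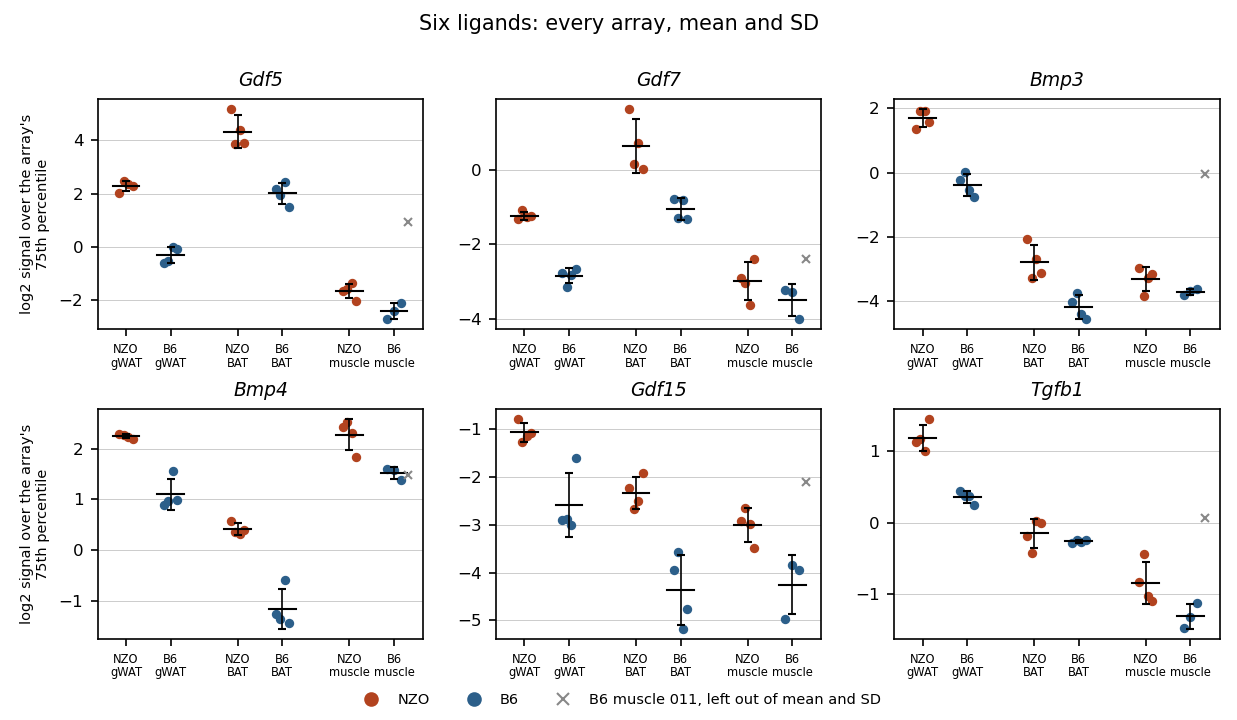
Log2 signal over the array's 75th percentile for 6 ligands on every array, NZO (red-brown) left of B6 (blue) in each tissue, with the mean as a line and the standard deviation as bars. The grey cross is B6 muscle 011, which is not in the mean. Gdf5, Gdf7, Bmp3, Bmp4 and Gdf15 are separate between strains in both fat depots, and Tgfb1 in gWAT.

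Inhbb had 1.84, 2.15, 2.01 and 2.16 in NZO gWAT, against 3.13, 3.15, 2.89 and 2.77 in B6 gWAT. Every NZO array was lower, and the difference was -0.95 ± 0.13 (SE, limma adjusted p = 0.00106). Acvr2b, a type II receptor for activins and myostatin, had 1.29, 0.92, 0.81 and 1.31 in NZO gWAT, against 2.12, 2.42, 2.35 and 1.91 in B6 gWAT. It did not overlap either, and was 2.17-fold lower in NZO gWAT (-1.12 ± 0.17 log2, SE, limma adjusted p = 0.00166). Acvr1c, through which activin B and Gdf3 act on adipocytes, had 3.61, 4.20, 4.13 and 3.41 in NZO gWAT, against 4.44, 4.66, 5.01 and 4.59 in B6 gWAT. The groups were separate and the difference was -0.84 ± 0.21 (SE, limma adjusted p = 0.0185). Without B6 gWAT 011 the Acvr1c adjusted p was 0.0525, and with slide as a block it was 0.0659. Acvrl1, the endothelial type I receptor ALK1, was lower with a difference of -0.63 ± 0.11 (SE, limma adjusted p = 0.00427).

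Among the Smads, Smad5 had 3.09, 3.07, 3.14 and 2.98 in NZO gWAT, against 3.38, 3.51, 3.41 and 3.52 in B6 gWAT. This BMP-type receptor Smad was lower with no overlap, with a difference of -0.39 ± 0.09 (SE, limma adjusted p = 0.014), and the call ended without B6 gWAT 010 (limma adjusted p = 0.0515). It also ended with detected probes averaged (limma adjusted p = 0.216), and the second Smad5 probe differed by 0.04. Smad9, the third BMP-type receptor Smad, was measured on all 4 B6 gWAT arrays and not well above background on any NZO gWAT array, so it was at least 1.46-fold lower in NZO gWAT (limma adjusted p = 0.00386). For such a bound, each array of the dim group was given the lowest signal well above background on it, or the probe's own signal where that was higher, and the group means were compared. The Smad9 call ended under normexp background correction and in the authors' series table (limma adjusted p = 0.388 and 0.193). Tgfbrap1, a protein bound to TGF-beta receptors, was 1.81-fold lower (limma adjusted p = 0.000693). Bmp2k was 1.36-fold lower (limma adjusted p = 0.0224), and not past the threshold without NZO gWAT 007 or B6 gWAT 010 (limma adjusted p = 0.0556 and 0.066). The second Bmp2k probe differed by 0.25, and averaging detected probes ended the call (limma adjusted p = 0.587). Smad2, Smad3 and Smad4 did not pass the test, with differences of -0.04 ± 0.14, -0.01 ± 0.12 and -0.11 ± 0.12 (SE). Among the 28 members that did not pass were Bmp7 at -0.85 and Inhbe at 0.56.

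With arrays centred on their median in place of the 75th percentile, the median of all genes in gWAT moved to 0.26, against -0.01. The members then split into 10 higher and 4 lower, and 72.9% of all calls were higher, against 50.5% with the 75th percentile. Tgfb3, Smad5, Bmp2k, Acvrl1 and Acvr1c were the lower calls that ended. Within the pair of slides that held both strains, all 18 called members had the sign of the full comparison. No called member overlapped between strains, so that sign was fixed and says nothing of slides.

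Other cell types moved with strain in gWAT. Of 11 macrophage markers, 10 were higher and 1 lower in NZO gWAT, and their summed signal was 212 to 251 in NZO gWAT and 83.6 to 104 in B6 gWAT. Of 8 brown adipocyte markers, 5 were higher, and their sum was 69.8 to 126 in NZO gWAT and 12.5 to 23.4 in B6 gWAT. The B cell sum was 3.55 to 19.5 in NZO gWAT and 1.34 to 1.77 in B6 gWAT, with 2 of 5 markers called higher. Its highest array, NZO gWAT 012, was also the highest for Tgfb1, and the highest NZO gWAT array for the macrophage and endothelial sums. NZO gWAT 009, the next for B cells at 4.75, was the lowest NZO gWAT array for Tgfb1. The endothelial sum was 59.5 to 93.6 in NZO gWAT and 72.7 to 99.7 in B6 gWAT, with 1 of 9 markers called lower. The sum of 7 mesothelial markers was 12 to 14.2 in NZO gWAT and 12.2 to 31.8 in B6 gWAT. In such bulk samples fewer cells of a type and less RNA per cell cannot be told apart. The part of these cell types in the values of Tgfb1, Gdf15, Gdf5, Gdf7 and Acvrl1 was not tested.

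**Figure D4:**
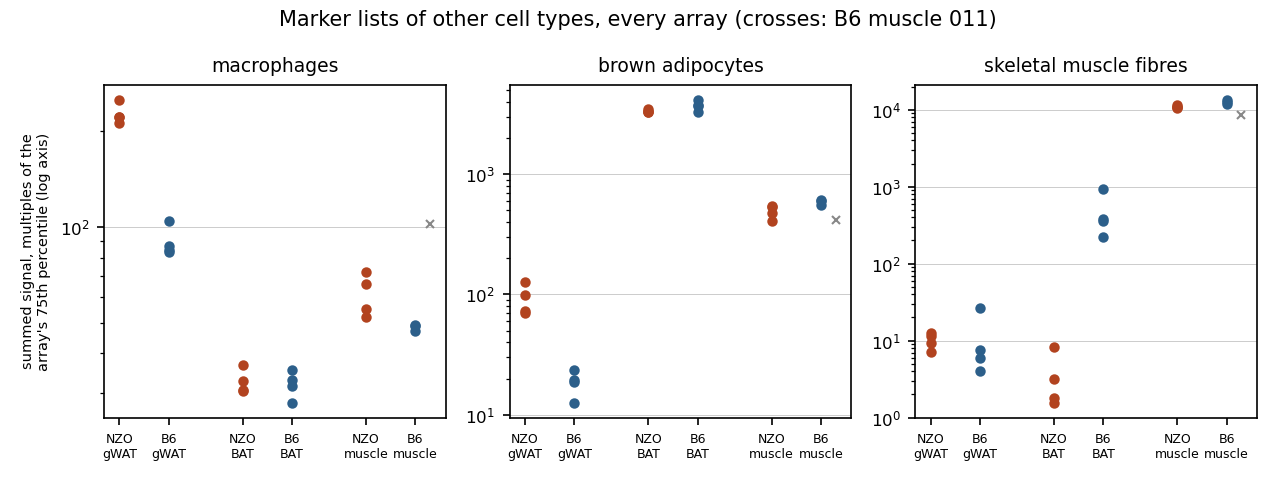
Summed signal of the macrophage, brown adipocyte and muscle fibre marker lists on every array (log axis), in multiples of the array's 75th percentile, NZO (red-brown) left of B6 (blue). The macrophage sum is 212 to 251 in NZO gWAT and 83.6 to 104 in B6 gWAT, and the muscle sum is 1.54 to 8.23 in NZO BAT and 225 to 927 in B6 BAT.

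In brown fat, 5 of the 7 ligands higher in NZO gWAT were higher in NZO BAT too: Gdf5, Gdf15, Gdf7, Bmp4 and Bmp3. Bmp2 joined them, while Gdf1 and Tgfb1 did not pass there. Bmp8b, Smad6, Tgfb2, Bmp7 and Tgfbrap1 were lower, and no receptor passed the test on the probe that stood for it. The second Acvr1c probe was higher in NZO BAT by 0.44 (limma adjusted p = 0.0458, fitted over all probes). The first differed by 0.28 and did not pass. Of 44 members tested in BAT, 6 were higher and 5 lower and 33 did not pass. That is 25% of the members, against 15.7% of all 20768 genes tested, of which 7.58% were higher and 8.09% lower. Bmp5, Bmpr1b, Gdf11, Inhba, Inhbc and Smad9 were among the members not tested. Of 43 members tested in both depots, 17 were called in gWAT and 10 in BAT, and 6, or 14.0%, were called in both, all 6 in the same direction. Of all 19869 genes tested in both depots, 8.36% were called in both, and 88.1% of those had the same direction.

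Gdf5 had 5.17, 3.87, 4.41 and 3.89 in NZO BAT, against 2.15, 1.93, 2.45 and 1.48 in B6 BAT. All NZO arrays were higher, by 2.33 ± 0.32 (SE), a fold of 5.04 (limma adjusted p = 0.00215). Gdf7 had 1.63, 0.17, 0.72 and 0.02 in NZO BAT, against -0.78, -1.29, -0.82 and -1.32 in B6 BAT. NZO BAT 003 was the highest, the strains did not overlap, and the difference was 1.69 ± 0.35 (SE, limma adjusted p = 0.0132). Bmp4 had 0.58, 0.37, 0.32 and 0.41 in NZO BAT, against -1.26, -1.35, -0.58 and -1.43 in B6 BAT. The difference of 1.57 ± 0.19 (SE) was a fold of 2.98, with no overlap (limma adjusted p = 0.000985).

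Gdf15 was measured on 4 NZO and 2 B6 BAT arrays, and its levels were -2.23, -2.67, -2.51 and -1.90 in NZO BAT, against -3.95, -3.57, -5.17 and -4.77 in B6 BAT. Every NZO array was higher (limma adjusted p = 0.00652). Bmp3 was measured on 4 NZO and 1 B6 BAT array, with -2.06, -3.28, -2.69 and -3.11 in NZO BAT, against -4.03, -3.73, -4.41 and -4.54 in B6 BAT. It was higher in NZO BAT without overlap (limma adjusted p = 0.0144), but not past the threshold under normexp background correction (limma adjusted p = 0.158). Bmp2, a BMP ligand of bone and adipocyte commitment, had -0.47, -0.84, -0.57 and -0.52 in NZO BAT, against -1.16, -1.27, -1.23 and -1.10 in B6 BAT. It was higher by 0.59 ± 0.10 (SE, limma adjusted p = 0.00664), and with slide as a block the adjusted p was 0.0704.

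Bmp8b had -4.40, -4.74, -4.28 and -3.42 in NZO BAT, where 1 of 4 arrays was well above background, against -2.45, -2.62, -2.62 and -1.83 in B6 BAT. Every NZO array was lower (limma adjusted p = 0.00485). Its near copy Bmp8a, which may share signal with it, did not pass the test, with a difference of 0.07 ± 0.15 (SE). Smad6, the inhibitory Smad of the BMP branch, had 0.38, -0.06, 0.11 and 0.10 in NZO BAT, against 1.17, 1.24, 0.73 and 1.04 in B6 BAT. It was 1.88-fold lower without overlap (limma adjusted p = 0.00394). Tgfbrap1 was 1.43-fold lower (limma adjusted p = 0.00591). Its second probe differed by 0.10, and the call ended when detected probes were averaged (limma adjusted p = 0.0973).

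Bmp7, a ligand known to drive brown adipogenesis, had -4.03, -4.38, -4.33 and -4.14 in NZO BAT, against -3.81, -3.19, -3.12 and -3.58 in B6 BAT. It was lower with a difference of -0.79 ± 0.17 (SE, limma adjusted p = 0.0167), but not past the threshold without NZO BAT 009 (limma adjusted p = 0.0552) or with slide as a block (limma adjusted p = 0.162). Under normexp the difference was -0.17 (limma adjusted p = 0.176), and quantile and median scaling ended the call too (limma adjusted p = 0.0696 and 0.0645). Tgfb2 had -2.76, -3.27, -2.54 and -2.25 in NZO BAT, against -1.83, -1.75, -1.995 and -1.93 in B6 BAT. It was lower with a difference of -0.83 ± 0.20 (SE, limma adjusted p = 0.028), and the call ended when any of NZO BAT 003, NZO BAT 009, B6 BAT 009, B6 BAT 010, B6 BAT 011 or B6 BAT 015 was left out, with adjusted p between 0.0534 and 0.0773. It also ended under quantile and median scaling, without the filter and with probes averaged, with adjusted p between 0.0581 and 0.191.

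The B6 BAT arrays held muscle transcripts: all 10 muscle fibre markers were lower in NZO BAT, with sums of 1.54 to 8.23 in NZO BAT and 225 to 927 in B6 BAT. Tgfb2 and Bmp7 were higher in muscle than in BAT, by 4.68 ± 0.15 and 1.66 ± 0.19 (SE). For Smad6 the difference, muscle minus BAT, was -1.57 ± 0.12 (SE), and Bmp8b was not well above background on any muscle array. The part of muscle transcripts in the strain differences of these and the other members called in BAT was not tested. The B cell sum was 2.8 to 3.68 in NZO BAT and 1.66 to 1.94 in B6 BAT. Of 4 B cell markers tested there, 1 was called higher. Of 6 fibroblast and progenitor markers 2 were lower, and of 8 mature adipocyte markers 2 were higher and 1 lower. The macrophage sums overlapped, at 30.4 to 36.8 in NZO BAT and 27.9 to 35.4 in B6 BAT. The part of these cell types was not tested either. Within the slide that held both strains, all 11 called members had the sign of the full comparison. That sign was fixed here too, because none of these members overlapped between strains. The 33 members that did not pass ranged from -0.46 for Acvrl1 to 0.80 for follistatin, Fst.

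**Figure D5:**
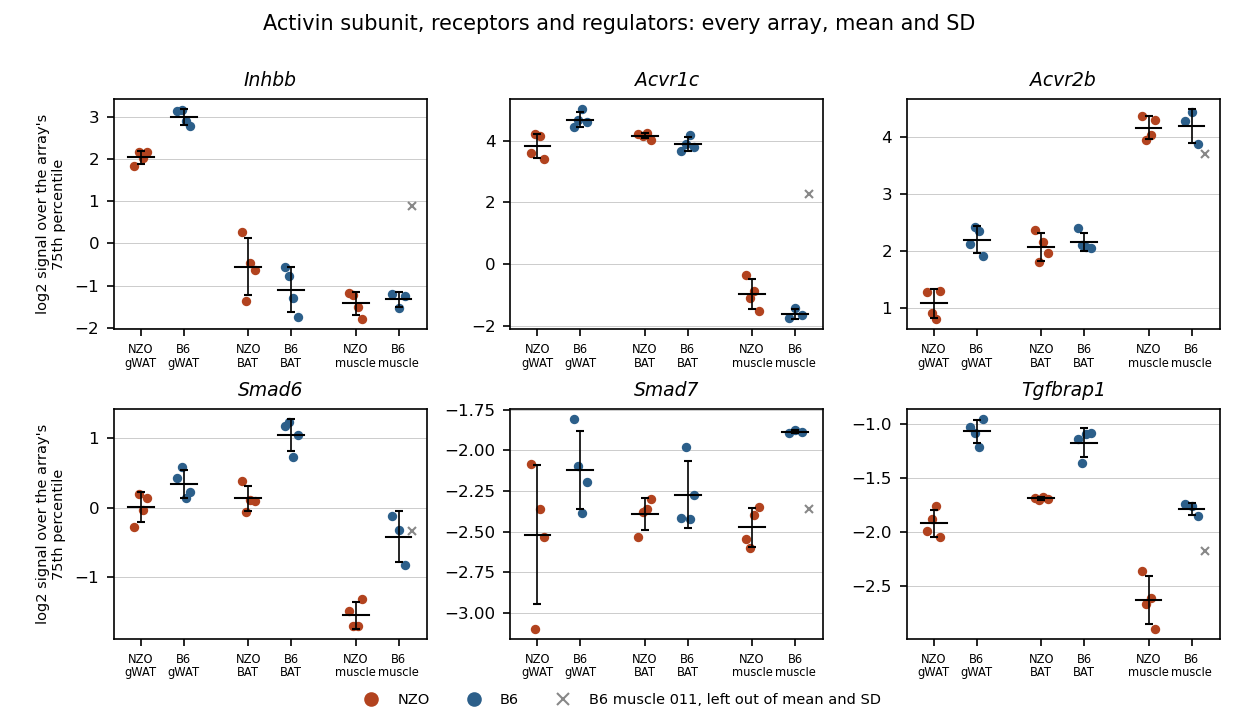
Log2 signal over the array's 75th percentile for 6 members on every array, NZO (red-brown) left of B6 (blue), with the mean as a line and the standard deviation as bars. The grey cross is B6 muscle 011. Inhbb, Acvr1c and Acvr2b are lower in NZO gWAT, Smad6 in NZO BAT and muscle, Smad7 in NZO muscle, and Tgfbrap1 in all 3 NZO tissues.

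In muscle, NZO mice had lower levels of the inhibitory Smads and of Bmp7, and a higher level of Bmp4. Of 49 members tested, 1 was higher and 7 lower in NZO muscle and 41 did not pass. That is 16.3% of the members, against 10.7% of all 20856 genes tested, of which 4.69% were higher and 6.02% lower. Bmp8b and Smad9 were not tested. With B6 muscle 011 kept, 1 member was higher and 6 lower, and Smad7 was the call that ended (limma adjusted p = 0.132). The mature adipocyte sum was 114 to 198 in NZO muscle and 114 to 136 in B6 muscle. The groups overlapped, with 2 of 8 markers called higher. The endothelial sum was 53.5 to 58.7 in NZO muscle and 42.7 to 45.5 in B6 muscle, with 2 of 9 markers called higher. The macrophage sum was 51.9 to 72.3 in NZO muscle and 47.2 to 49.2 in B6 muscle, with 1 of 11 called higher. That of B cell markers was 1.5 to 1.78 in NZO muscle and 0.859 to 0.95 in B6 muscle, with 1 of 4 tested called higher. The sums of these 3 lists did not overlap between strains, nor did the muscle fibre sums given above. The part of these cell types, adipocytes included, in the values of the members was not tested. None of the 12 receptors and 1 of 22 ligands tested was higher.

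Bmp4 had 2.42, 2.53, 2.31 and 1.84 in NZO muscle, against 1.61, 1.57 and 1.38 in B6 muscle. The strains did not overlap, and the difference was 0.75 ± 0.18 (SE, limma adjusted p = 0.0411). This call ended without any single array but NZO muscle 011, with adjusted p between 0.0759 and 0.127. It also ended under median scaling, without the filter and in the authors' series table (limma adjusted p = 0.144, 0.0928 and 0.055). Smad6 had -1.48, -1.71, -1.70 and -1.31 in NZO muscle, against -0.11, -0.32 and -0.82 in B6 muscle. All NZO arrays were lower, with a difference of -1.13 ± 0.19 (SE, limma adjusted p = 0.0131). Without B6 muscle 009 or B6 muscle 010 the Smad6 adjusted p was 0.0514 and 0.0649.

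Smad7, the inhibitory Smad of both branches, had -2.55, -2.60, -2.40 and -2.35 in NZO muscle, against -1.89, -1.88 and -1.89 in B6 muscle. It was 1.5-fold lower without overlap (limma adjusted p = 0.0134), and past the threshold neither without B6 muscle 009 nor without B6 muscle 010 (limma adjusted p = 0.0607 and 0.0707). Under normexp the difference was -0.29 (limma adjusted p = 0.0695), and median scaling and slide as a block ended the call (limma adjusted p = 0.0527 and 0.0657). Tgfbrap1 had -2.36, -2.66, -2.61 and -2.89 in NZO muscle, against -1.74, -1.76 and -1.85 in B6 muscle. All NZO arrays were lower, with a difference of -0.85 ± 0.14 (SE, limma adjusted p = 0.011); without B6 muscle 009 or 010 the adjusted p was 0.0537 and 0.0566, and with detected probes averaged it was 0.43.

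Bmp7 had -2.55, -2.29, -2.64 and -2.87 in NZO muscle, against -1.85, -1.53 and -1.85 in B6 muscle. It was lower with a difference of -0.85 ± 0.17 (SE, limma adjusted p = 0.0205), and not past the threshold without NZO muscle 003, B6 muscle 009 or B6 muscle 010 (limma adjusted p = 0.0521, 0.0631 and 0.0916). It also ended under median scaling, without the filter and with slide as a block (limma adjusted p = 0.0512, 0.0511 and 0.11). Bmp2k, a kinase named after BMP2, was 2.28-fold lower (limma adjusted p = 0.00796), but not past the threshold with detected probes averaged (limma adjusted p = 0.165). Inhbc, an activin subunit known from liver, had -4.36, -4.99, -6.80 and -6.67 in NZO muscle, where 1 of 4 arrays was well above background, against -3.26, -3.35 and -3.02 in B6 muscle. Every NZO array was lower (limma adjusted p = 0.0456), and leaving out any array but NZO muscle 003 ended that call, with adjusted p between 0.0638 and 0.133. It also ended without the filter and with slide as a block (limma adjusted p = 0.0926 and 0.0945). Within the slide that held both strains all 8 called members had the sign of the full comparison. With no overlap between strains for any of these members, that sign was again fixed. Gdf5, higher in NZO fat, lay at 0.75 ± 0.20 (SE) in muscle and did not pass (limma adjusted p = 0.0568). Gdf15 did not pass either (limma adjusted p = 0.0509), with 4 NZO and 1 of 3 B6 muscle arrays measured.

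Bmp4 was the only member called higher in all 3 tissues, and Tgfbrap1 the only one called lower in all 3, while 1.23% and 1.53% of all genes detected were higher and lower in all 3. With detected probes averaged, Tgfbrap1 was called in neither BAT nor muscle (limma adjusted p = 0.0973 and 0.43). Of the 51 members, 26 were called in at least 1 tissue, 9 in 2 or 3 tissues, and 25 in none. These are 51.0% and 17.6% for at least 1 and for 2 or 3 tissues, against 39.6% and 10.2% of the 23330 genes detected. Among the brightest probes of each role, Acvr1, Tgfbr3, Smad4 and Fst passed in no tissue. Acvr1, a BMP type I receptor, differed by -0.16 ± 0.21 in gWAT, 0.08 ± 0.26 in BAT and -0.29 ± 0.17 in muscle (SE). Tgfbr3, the co-receptor betaglycan, differed by 0.07 ± 0.12, 0.14 ± 0.14 and 0.39 ± 0.11 (SE) in the same tissues. Smad4, the common partner Smad, differed by -0.11 ± 0.12, 0.08 ± 0.09 and -0.35 ± 0.15 (SE). Fst, which binds activins, differed by 0.17 ± 0.12, 0.80 ± 0.29 and 0.57 ± 0.19 (SE).

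Whether the strain difference itself depended on tissue was tested in 1 fit over 23 arrays. Of 51 members, 10 differed between BAT and gWAT, against 18.3% of all genes. Between muscle and gWAT 11 differed, against 20.2% of all genes, and between muscle and BAT 3 differed, against 5.86%. The activin B subunit and 2 activin receptors were among them. The strain difference in BAT minus that in gWAT was 1.49 ± 0.38 for Inhbb, 1.12 ± 0.30 for Acvr1c and 1.04 ± 0.23 for Acvr2b (SE, limma adjusted p = 0.0108, 0.0133 and 0.00423). For Inhbb the strain difference was 0.55 ± 0.38 in BAT and -0.95 ± 0.13 in gWAT (SE). In muscle minus gWAT it was 1.09 ± 0.24 for Acvr2b and 1.49 ± 0.31 for Acvr1c (SE, limma adjusted p = 0.00409 and 0.0025).

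For Gdf5 and Bmp3 the strain difference was lower in muscle than in gWAT. The strain difference in muscle minus that in gWAT was -1.86 ± 0.38 for Gdf5 and -1.67 ± 0.37 for Bmp3 (SE, limma adjusted p = 0.00215 and 0.0041), with 3 of 4 NZO muscle arrays measured for Bmp3. For Gdf5 it was -1.58 ± 0.38 (SE) in muscle minus BAT (limma adjusted p = 0.017), and that call ended with slide as a block (limma adjusted p = 0.185). Gdf1, higher in NZO gWAT, had a lower strain difference than in gWAT, in BAT by -1.43 ± 0.32 and in muscle by -1.23 ± 0.33 (SE, limma adjusted p = 0.00429 and 0.0143). Tgfb1 and Bmp1 likewise had a lower strain difference in BAT than in gWAT, with a difference of -0.72 ± 0.19 and -0.51 ± 0.16 (SE, limma adjusted p = 0.0129 and 0.0316).

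Bmp2 had a strain difference 0.71 ± 0.15 higher in BAT than in gWAT and one of -0.93 ± 0.16 in muscle minus BAT (SE, limma adjusted p = 0.00341 and 0.00124). For the receptor Smads Smad5 and Smad1 it was higher in BAT than in gWAT, by 0.62 ± 0.12 and 0.65 ± 0.20 (SE, limma adjusted p = 0.000888 and 0.0288). The Smad1 call held in 3 of 7 alternatives other than leaving out an array. The second Smad5 probe differed between strains by 0.04 in gWAT and -0.005 in BAT. Gdf10, a secreted ligand also called Bmp3b, was -0.79 ± 0.28 in gWAT, 0.47 ± 0.15 in BAT and 0.68 ± 0.36 in muscle (SE), with no call in any tissue. Its strain difference was higher by 1.26 ± 0.40 in BAT and by 1.47 ± 0.41 in muscle than in gWAT (SE, limma adjusted p = 0.033 and 0.018). Bmp8a was higher in muscle minus gWAT, by 0.97 ± 0.29 (SE, limma adjusted p = 0.0246). Bmpr1b and Smad9 passed there too (limma adjusted p = 0.0348 and 0.0104), each with groups that were not well above background. Bmpr1b was measured on 0 of 4 NZO and 2 of 4 B6 gWAT arrays, and Smad9 on no NZO gWAT array and no muscle array of either strain. The Bmpr1b call held in 1 of 7 alternatives other than leaving out an array, and that of Smad9 ended under normexp (limma adjusted p = 0.96). Smad6 and Bmp2k had a lower strain difference in muscle than in gWAT, with a difference of -0.80 ± 0.24 and -0.75 ± 0.20 (SE, limma adjusted p = 0.024 and 0.0148). Bmp2k was also lower in muscle minus BAT, with a difference of -0.74 ± 0.20 (SE, limma adjusted p = 0.0378).

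These differences between tissues depended on the settings. Of the 10 members called for BAT minus gWAT, 2 kept the call under every alternative run on these contrasts. For muscle minus gWAT 3 of 11 did, and for muscle minus BAT 0 of 3 did. Averaged probes and the authors' series table were not run on these contrasts, so they were not put to that check. With arrays centred on the median, the median of all genes moved to -0.22 for BAT minus gWAT, and the calls of Acvr1c, Bmp2, Gdf10, Inhbb, Smad1 and Smad5 ended. In muscle minus gWAT it moved to -0.32, and those of Bmp8a, Bmpr1b and Gdf10 ended. With that centring 26.3% of all calls in BAT minus gWAT were higher, against 47.8% with the 75th percentile, and 18% in muscle minus gWAT, against 43.6%. With slide as a block, Acvr1c, Bmp1 and Gdf10 were not called in BAT minus gWAT. Nor were Acvr1c, Bmp2k, Bmp8a, Bmpr1b, Gdf1, Gdf10, Smad6 and Smad9 in muscle minus gWAT. In muscle minus BAT, that block ended the calls of Bmp2, Bmp2k and Gdf5 (limma adjusted p = 0.158, 0.38 and 0.185). With B6 muscle 011 kept, Acvr1c was 0.52 in muscle minus gWAT (limma adjusted p = 0.702), and the calls of Acvr1c, Inhbb and Tgfb1 in BAT minus gWAT ended (limma adjusted p = 0.394, 0.0869 and 0.152). So did those of Gdf1 in muscle minus gWAT and of Bmp2k and Gdf5 in muscle minus BAT (limma adjusted p = 0.0511, 0.074 and 0.0735). With title number as a replicate block, Tgfb1 and Bmp1 were not called in BAT minus gWAT (limma adjusted p = 0.0873 and 0.064). Nor were Bmp2k, Bmpr1b, Gdf1 and Smad6 in muscle minus gWAT, with adjusted p between 0.0534 and 0.114, or Bmp2k in muscle minus BAT (limma adjusted p = 0.0998). Bmp1 kept its call in BAT minus gWAT in 2 of 7 alternatives other than leaving out an array.

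Other genes of the pathway were taken from lists that were chosen with earlier results of these data known. The shares called in them are therefore descriptive. Of 19 genes known to respond to TGF-beta, 8 were higher and 1 lower in NZO gWAT. That is 47.4%, against 31.6% of all genes, with a median of 0.55 against -0.01 over all genes. Timp1, an inhibitor of matrix proteases, was higher by 3.87 ± 0.33 and Postn, the matrix protein periostin, by 1.60 ± 0.17 (SE, limma adjusted p = 9.19e-05 and 0.000253). The macrophage sums given above were higher in the same NZO arrays, and their part in this list was not tested. Cdkn2b, a cell cycle inhibitor, was lower with a difference of -0.75 ± 0.20 (SE, limma adjusted p = 0.0218). In BAT 1 of these 19 was higher and 2 lower, 15.8% against 15.7% of all genes: Snai1 by 0.65 ± 0.17, Tagln with a difference of -0.48 ± 0.12 and Acta2 with a difference of -0.58 ± 0.15 (SE). In muscle 1 was higher, Snai2 by 0.48 ± 0.11 (SE), and 2 were lower, Cdkn2b with a difference of -1.70 ± 0.21 and Pmepa1, which limits receptor Smads, with a difference of -0.82 ± 0.12 (SE, limma adjusted p = 0.00358 and 0.00734). That is 15.8% in muscle, against 10.7% of all genes.

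Of the BMP response genes, 1 of 13 tested in gWAT and 1 of 12 in BAT was called, and it was Id1 in both. These shares of 7.69% and 8.33% were below those of all genes, 31.6% and 15.7%. Id1, a direct target of BMP Smads, had means of 1.45 in NZO gWAT and 2.50 in B6 gWAT, a difference of -1.05 ± 0.23 (SE, limma adjusted p = 0.0109). In BAT it was lower with a difference of -1.32 ± 0.18 (SE, limma adjusted p = 0.00193). In muscle, 2 of 12 were higher, Id2 by 0.76 ± 0.19 (SE, limma adjusted p = 0.0465) and Hamp2, measured on 4 NZO and 1 B6 array (limma adjusted p = 0.0438); Hamp2 has a near copy, Hamp. That is 16.7%, against 10.7% of all genes.

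Of 17 extracellular inhibitors and modulators tested in gWAT, 4 were higher and 3 lower in NZO, 41.2% against 31.6% of all genes. Ltbp2 and Fstl3 were higher by 1.91 ± 0.11 and 0.97 ± 0.24, and Ltbp4 and Bmper were lower with a difference of -1.003 ± 0.12 and -1.04 ± 0.24 (SE). Ltbp2 and Ltbp4 are matrix proteins, Fstl3 binds activins and Bmper binds BMPs. In BAT, 1 of 18 was higher, Ltbp2 by 0.34 ± 0.10, and 1 lower, Ltbp4 with a difference of -0.71 ± 0.18 (SE). In muscle, 1 of 18 was lower, Dand5, with a difference of -0.50 ± 0.13 (SE). These are 11.1% in BAT and 5.56% in muscle, against 15.7% and 10.7% of all genes. Of 19 intracellular regulators, 3 were higher and 2 lower in NZO gWAT, 26.3% and so below the 31.6% of all genes. Nedd4l, a ubiquitin ligase, was higher by 1.54 ± 0.16 and Tgif1, a Smad co-repressor, by 0.85 ± 0.16, while the ubiquitin ligases Smurf1 and Trim33 were lower with a difference of -0.82 ± 0.14 and -0.63 ± 0.11 (SE). In BAT 1 of 19 was lower, the kinase Map3k7, with a difference of -0.47 ± 0.09, and in muscle 4 of 19 were lower, led by Zfyve9, which brings receptor Smads to receptors, with a difference of -1.17 ± 0.18 and Ppp1r15a, a phosphatase subunit, with a difference of -1.14 ± 0.18 (SE). The shares of 5.26% in BAT and 21.1% in muscle compare with 15.7% and 10.7% of all genes.

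Of 10 other ligands and co-receptors tested in gWAT, 1 was higher and 3 lower, 40.0% against 31.6% of all genes. Myostatin, Mstn, the muscle growth inhibitor, was measured on all 4 NZO gWAT arrays and on no B6 gWAT array, and was at least 6.12-fold higher in NZO gWAT (limma adjusted p = 6.54e-06). Muscle fibre sums were 7.2 to 12.4 in NZO gWAT and 3.98 to 26.4 in B6 gWAT. Rgmb, a BMP co-receptor, was lower in NZO mice in gWAT with a difference of -0.96 ± 0.10, in BAT with a difference of -0.63 ± 0.15 and in muscle with a difference of -0.63 ± 0.12 (SE, limma adjusted p = 0.000315, 0.0268 and 0.0174). Lefty1 and Inha were lower in gWAT (limma adjusted p = 0.00496 and 0.0264), each measured on 1 NZO and 4 B6 arrays. In BAT, Hjv, a BMP co-receptor of muscle and liver, was measured on no NZO and 4 B6 arrays and was at least 7.32-fold lower in NZO BAT (limma adjusted p = 0.000181); the muscle fibre sums given above differ in the same direction, and their part in it was not tested. Hjv was lower in muscle with a difference of -0.55 ± 0.12 (SE, limma adjusted p = 0.0346), and Lefty1 there was measured on 1 NZO and 3 B6 arrays (limma adjusted p = 0.0228).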

How the data were processed

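Total RNA of 24 samples was hybridised to single-colour Agilent mouse arrays. The deposited files hold spot intensity per array. For the authors' intensity values, the scanner software was Agilent Feature Extraction, version 11.0.1.1 per the file headers and 9.1 per the submitters' processing notes; which is right was not settled. Other flags in the deposited files mark spots well above background, saturated or outlying. The deposited series table holds the mean median intensity per transcript and served as an alternative only.

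Here, log2 processed intensity minus the array's 75th percentile was computed, outlier spots were dropped, replicate spots were averaged, and 27656 of 55681 probes were matched to RefSeq, of which 1711 took a newer name. Probe sequences were not checked against NZO variants, which can lower a signal. Testing in a tissue required a gene to be well above background on every array of 1 strain or both. Tests used limma 3.58.1 in R 4.3.3 (lmFit, eBayes), with Benjamini-Hochberg adjustment over all genes; the fits across tissues used 23 arrays. Promoters and figures used Python with pandas and matplotlib. The fit was tested on simulated data. The number of arrays limits the precision.

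The members and lists were chosen with earlier results of these data known. The values of 1 member enter the counts and are not reported here. Named with values were, per tissue, the called members with the 6 highest and 6 lowest differences, members whose strain difference differed between tissues, members called in all 3, the brightest probe of each role, and per tissue the 3 members with the largest smaller difference from the other 2 tissues. From each other list, the 2 highest and 2 lowest called genes per tissue were named. Alternatives were normexp with an offset of 50, quantile and median scaling, no filter, averaged probes, the series table, a fit over all arrays, slide and title number as blocks, B6 muscle 011 kept, and each array left out. Averaged probes, the series table and the fit over all arrays served only the strain differences within a tissue.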

Additional observations from a re-analysis of the deposited data

Results flagged for a closer look

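In 12 of 223 groups of 4 arrays with the member measured on all, 1 array stood apart: its gap to the nearest array, as a share of the group's range, was above Dixon's critical value. Chance gives about 1 in 20 such groups. The ratio of gap to range was high-sided for Acvr1 on B6 gWAT 011 (0.969), Acvr2a on NZO gWAT 009 (0.874), Acvr2b on B6 BAT 009 (0.881), Bmp4 on B6 gWAT 011 (0.84), Bmpr1a on NZO muscle 009 (0.898), Gdf15 on B6 gWAT 015 (0.915), Smad4 on NZO muscle 009 (0.842) and Smad5 on B6 BAT 011 (0.893). It was low-sided for Gdf10 on B6 BAT 009 (0.912), Gdf9 on NZO BAT 007 (0.837), Tgfb1i1 on B6 gWAT 009 (0.869) and Tgfbi on NZO gWAT 003 (0.874). B6 gWAT 011 was the high array for both Bmp4 and Acvr1, and Bmp4 stayed called without it.

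The strain difference, NZO minus B6, differed between tissues by an interaction test for the following members, with the log2 difference of differences in brackets. For BAT minus gWAT these were Bmp1 (-0.51), Smad5 (0.62), Acvr2b (1.04), Acvr1c (1.12), Gdf1 (-1.43), Inhbb (1.49), Tgfb1 (-0.72), Gdf10 (1.26), Bmp2 (0.71) and Smad1 (0.65). For muscle minus gWAT these were Acvr2b (1.09), Acvr1c (1.49), Bmp2k (-0.75), Gdf5 (-1.86), Gdf1 (-1.23), Smad6 (-0.80), Gdf10 (1.47), Bmp8a (0.97), Bmp3 (-1.67), Bmpr1b (2.26) and Smad9 (1.69). For muscle minus BAT these were Bmp2k (-0.74), Gdf5 (-1.58) and Bmp2 (-0.93). For Bmpr1b and Smad9, groups that enter these values were not well above background.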

How the results depend on the processing

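Across all alternatives other than leaving out an array, the called members kept their direction in every tissue: 130 of 144 values in gWAT, 88 of 99 in BAT and 56 of 72 in muscle stayed past the threshold. For differences between tissues 167 of 168 kept their direction. Smad9 in muscle minus gWAT turned to -0.014 under normexp. With 1 array left out, 129 of 144 values in gWAT, 81 of 88 in BAT and 35 of 56 in muscle stayed past the threshold. Under every alternative, arrays left out included, 10 of 18 calls were kept in gWAT, 6 of 11 in BAT and 0 of 8 in muscle. With median centring, members lower in gWAT numbered 4 and in BAT 3, members higher in muscle 0, genes called in muscle 1263, higher strain differences 1 in BAT minus gWAT and 3 in muscle minus gWAT, genes called in muscle minus BAT 579, and members higher in BAT than gWAT 7. Of all calls, 42.8% were then higher in BAT minus gWAT, against 62.1%, and 41.5% in muscle minus gWAT, against 53.6%. Quantile normalization gave 3 lower members in BAT and 2 higher in muscle, averaged probes 3 lower in BAT, and normexp 2 higher in muscle and 19 higher in BAT than gWAT. Without the filter 0 members were higher in muscle and 1383 genes were called. A fit over all arrays gave 4 higher members in muscle. With slide as a block 5 were higher in muscle, strain differences in muscle minus gWAT were 2 higher and 2 lower, and in muscle minus BAT 0 members were lower and 394 genes called. With B6 muscle 011, 1082 genes were called in muscle and 1 lower member in muscle minus BAT. Leaving out 1 array gave 3 to 6 lower members in BAT, 0 to 3 higher and 2 to 6 lower members in muscle, 991 to 1993 genes called in muscle, 3 to 6 higher strain differences in muscle minus gWAT, 0 to 1 higher in muscle minus BAT, and 812 to 1524 genes called there. The causes were not tested.

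Whether title numbers pair the samples is not settled by the labels. Over 20 pairs of the same strain and number in different tissues the correlation of deviations was -0.183 to 0.411, with 7 over 0.1, against 1 of 9 pairs across strains and tissues. The medians were 0.081 and -0.07. These values do not settle whether samples of the same strain and number share an animal. The main fits did not use the numbers as pairs. If such samples do share an animal, the fits across tissues treat related arrays as independent. The replicate block gave 6 higher and 5 lower members and 3190 genes called in BAT. It gave 1 lower strain difference in BAT minus gWAT and 5 in muscle minus BAT. Within BAT the block was the title number alone, so NZO and B6 arrays of the same number shared a block. Arrays of different strains are not from 1 animal, so that fit says nothing of pairing. Its values are among the alternatives counted above. In the fits across tissues the block was strain and number. In gWAT and muscle the strains share fewer than 2 numbers, so no such block was fitted within them. Signals near background limit Bmp8b, Inhbc, Smad9 and Bmpr1b.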

Other observations

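The probe that stood for Gdf3, an ALK7 ligand known from macrophages, differed little between strains in gWAT, by 0.05 ± 0.21 (SE), with means of -1.89 in NZO gWAT and -1.95 in B6 gWAT. A second Gdf3 probe was well above background on all 4 NZO gWAT arrays and on no B6 gWAT array, with means of -3.01 in NZO gWAT and -6.34 in B6 gWAT, so at least 4.12-fold higher in NZO gWAT (limma adjusted p = 0.00038, fitted over all probes). The 2 probes disagree, and the member was described by the brighter. Among probes of members with a second detected probe, 15 of 20 pairs had the same sign in gWAT, 9 of 15 in BAT and 17 of 17 in muscle, and no pair was called in opposite directions.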
